A study of Mus musculus with 4 samples.

Results

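Genes of the fat cell were examined in arrays of whole kidney from Usp2-KO mice, in which the ubiquitin-specific protease Usp2 is inactivated, and from wild-type littermates. The genes are Adipoq, Retn, Lep, Plin1, Plin4, Cidec, Cidea, Lipe, Fabp4 and Ucp1. They were taken by name from the array's annotation, where each of the 10 has 1 row, out of 19934 genes measured. For a gene with several rows, the one of highest mean over the 4 arrays would have been selected. The 10 were chosen by their use as fat cell markers and on earlier results of the same genotype comparison, in which several of them were lower. Their differences between genotypes are therefore a description and support nothing by themselves.

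The animals were male C57BL6/N mice, 12 weeks old, dissected at Zeitgeber Time 12 (12 h after lights on) after 3 weeks in cycles of light and dark. The labels give no detail of the Usp2-KO allele, and WT mice are littermates of the Usp2-KO mice. Equal amounts of kidney RNA from 3 mice were combined into each pool, with 2 pools per genotype, and pools of the same number hold littermates. All 4 pools were hybridised to an Affymetrix whole-transcript array, and the authors deposited log2 values made with RMA.

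Fat cells store triglyceride in a large lipid droplet and release hormones into the blood. The kidney lies in the perirenal fat pad, which holds white and, in mice, brown fat cells, and some of it can stay with a dissected kidney. Adiponectin (Adipoq), resistin (Retn) and leptin (Lep) are hormones of fat cells in the mouse. Perilipins (Plin1, Plin4) and the CIDE proteins (Cidec, Cidea) coat lipid droplets or help them fuse, Lipe is the hormone-sensitive lipase, Fabp4 carries fatty acids in the cytosol, and Ucp1 makes brown fat mitochondria produce heat. Fabp4 is also made by endothelial cells and macrophages, and Lipe by steroid-producing and other cells. In RNA of a whole organ, fewer cells of a type and less RNA per cell cannot be told apart.

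The 5 promoter stretches printed here are those of Adipoq, Retn, Cidec and Plin1, which shared a pattern across the pools, and of Lep, which did not share it. Each is the 250 bases before the annotated start farthest upstream, from RefSeq on GRCm38.p6, read 5′ to 3′ on the gene's strand. They lie at chr7:79732777-79733026 on the minus strand (Plin1), chr6:29059971-29060220 on the plus strand (Lep), chr16:23146286-23146535 on the plus strand (Adipoq), chr6:113435761-113436010 on the minus strand (Cidec) and chr8:3655520-3655769 on the plus strand (Retn). Capitals mark the letters TTGCNNAA, a core bound by C/EBP factors of the fat cell program, and CCAAT, the CCAAT box, each searched on both strands, as was TATAAA.
Plin1: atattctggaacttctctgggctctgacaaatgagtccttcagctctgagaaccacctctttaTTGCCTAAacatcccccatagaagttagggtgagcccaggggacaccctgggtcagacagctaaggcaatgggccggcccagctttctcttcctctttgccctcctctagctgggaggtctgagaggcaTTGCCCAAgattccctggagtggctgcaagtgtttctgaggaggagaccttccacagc
Lep: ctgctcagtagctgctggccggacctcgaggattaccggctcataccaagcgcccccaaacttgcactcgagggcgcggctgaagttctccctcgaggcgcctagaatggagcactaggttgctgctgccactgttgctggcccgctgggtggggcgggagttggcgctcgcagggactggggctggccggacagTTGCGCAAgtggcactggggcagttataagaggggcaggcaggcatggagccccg
Adipoq: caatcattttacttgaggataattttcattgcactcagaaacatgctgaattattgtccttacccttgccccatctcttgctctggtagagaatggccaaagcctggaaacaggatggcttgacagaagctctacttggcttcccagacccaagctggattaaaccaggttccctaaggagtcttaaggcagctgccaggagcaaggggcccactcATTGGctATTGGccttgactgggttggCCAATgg
Cidec: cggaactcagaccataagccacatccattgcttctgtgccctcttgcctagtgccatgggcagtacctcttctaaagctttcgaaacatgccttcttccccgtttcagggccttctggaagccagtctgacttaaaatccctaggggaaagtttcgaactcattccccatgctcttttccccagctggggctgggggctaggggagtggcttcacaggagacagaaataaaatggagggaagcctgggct
Retn: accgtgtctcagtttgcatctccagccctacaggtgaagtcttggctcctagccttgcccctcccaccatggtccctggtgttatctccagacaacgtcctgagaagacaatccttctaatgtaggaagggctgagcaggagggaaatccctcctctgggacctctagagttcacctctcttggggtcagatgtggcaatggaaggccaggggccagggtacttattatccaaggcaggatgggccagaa

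The Plin1 stretch holds TTGCNNAA at 2 places, which begin 187 and 58 bases before the start, and the Lep stretch holds it at 1 place, 55 bases before the start, where it reads the same on both strands. The Adipoq stretch holds 3 CCAAT boxes. The Cidec and Retn stretches printed hold neither, and the marked matches do not overlap one another. Of all 32851 such stretches of 27025 genes, 9.56% hold TTGCNNAA and 33.8% hold CCAAT. The table had stretches for 8 of the 10 genes, 10 stretches in all, and a second start of Cidec holds TTGCNNAA. TATAAA, the TATA box, was in 0 of the 10 stretches and in 12.4% of all. These matches describe letters in a short window and show no binding.

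The label check came from Usp2 itself, at 11.63 and 11.71 in the WT pools and 7.65 and 7.60 in the Usp2-KO pools, where the change of -4.04 (SE 0.07) had a limma adjusted p of 2.8e-08. Of 15 kidney markers, 11 were higher and 4 lower in Usp2-KO, where 52.5% of all genes were lower. Their mean log2 values per array lay between 11.47 and 11.58. By limma 4 of the 15 had an unadjusted p under 0.05, where 9.11% of all genes did, and 0 passed after adjustment. With the littermate pools as a block 1 passed, where 0.768% of all genes did. This was Calb1, a calcium carrier of the distal tubule, which was higher by 0.44. Its limma adjusted p was 0.286 without the block, 0.0039 with it and 0.0493 with an intensity trend. No array stood apart over all genes, with correlations between 0.997 and 0.998 across genes, which are not replicates. The files hold no detection calls. The 1027 olfactory receptor genes, a family of the nose, gave mean values between 3.29 and 6.67 (the 5th and 95th percentile), and the means of Cidea, Ucp1 and Lep lay inside that range. Values of different probe sets are not levels per length, so the genes are not ranked against one another.

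Adipoq, Cidec, Plin1 and Retn had a common pattern, in which Usp2-KO pool 1 lay well below the other 3 arrays. Adipoq had log2 values of 7.10 and 7.08 in WT pools 1 and 2, and of 6.28 and 6.95 in Usp2-KO pools 1 and 2. The WT pools were within 0.03 of each other, whereas the Usp2-KO pools were 0.68 apart, which is 1.60-fold. Usp2-KO pool 1 was 0.83 below its littermate WT pool (1.77-fold), and Usp2-KO pool 2 was 0.12 below its own (1.09-fold). The mean was 7.09 ± 0.02 in WT and 6.62 ± 0.48 in Usp2-KO (SD, n = 2 pools), a difference of -0.47 (SE 0.17).

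Cidec, which drives the growth of lipid droplets by fusion, was at 8.21 and 8.20 in the WT pools and at 7.41 and 8.15 in the Usp2-KO pools. The other 3 arrays lay close together and Usp2-KO pool 1 alone was low. The littermate differences were -0.80 and -0.04, and the genotype difference was -0.42 (SE 0.19), with means of 8.20 ± 0.01 in WT and 7.78 ± 0.53 in Usp2-KO (SD, n = 2 pools). Plin1, the main droplet coat protein of white fat cells, was at 7.74 and 7.70 in the WT pools and at 7.09 and 7.68 in the Usp2-KO pools. It showed the same single low pool. Its littermate differences were -0.65 and -0.02, and its genotype difference was -0.34 (SE 0.16), with means of 7.72 ± 0.03 in WT and 7.38 ± 0.42 in Usp2-KO (SD, n = 2 pools).

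Retn, the gene of resistin, was at 7.78 and 7.64 in the WT pools and at 7.09 and 7.49 in the Usp2-KO pools. Both Usp2-KO pools were below both WT pools, and pool 1 was again the lower. The littermate differences were -0.69 and -0.14, and the genotype difference was -0.42 (SE 0.12), with means of 7.71 ± 0.10 in WT and 7.29 ± 0.29 in Usp2-KO (SD, n = 2 pools). The differences between genotypes in these 4 genes rested mainly on 1 pool. Without Usp2-KO pool 1 they were -0.14 for Adipoq, -0.21 for Retn, -0.05 for Cidec and -0.04 for Plin1, and without Usp2-KO pool 2 they were -0.81, -0.62, -0.80 and -0.63 in that order.

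**Figure D1:**
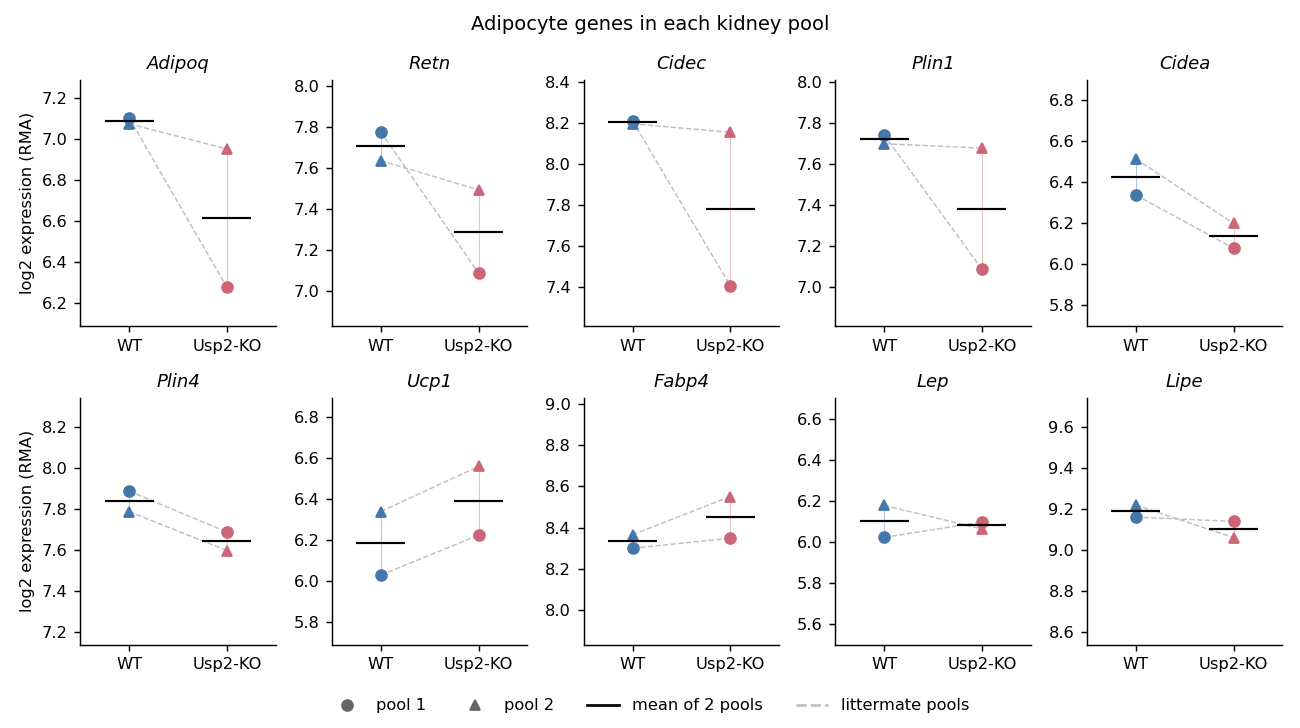
Log2 expression of the 10 genes in each of the 4 pools (circles, pool 1; triangles, pool 2; blue, WT; red, Usp2-KO), with the mean of 2 pools as a bar and littermate pools joined by dashed lines; every panel spans 1.2 log2 units. Usp2-KO pool 1 lies well below the other pools for Adipoq, Retn, Cidec and Plin1 (6.28, 7.09, 7.41 and 7.09). Cidea and Plin4 are lower in Usp2-KO by nearly the same amount in both littermate pairs.

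Cidea and Plin4 had a different pattern, with littermate differences of nearly the same size in both pairs. Cidea, the CIDE protein of brown fat cells, was at 6.34 and 6.51 in the WT pools and at 6.08 and 6.20 in the Usp2-KO pools. The groups did not overlap, and the littermate differences were -0.26 and -0.31. Its genotype difference was -0.29 (SE 0.09), and -0.23 without Usp2-KO pool 1. The mean of Cidea over the arrays, 6.28, lay inside the range of the olfactory receptors. Plin4, a perilipin of small nascent droplets, was at 7.89 and 7.79 in the WT pools and at 7.69 and 7.60 in the Usp2-KO pools. Here too the groups did not overlap, with littermate differences of -0.20 and -0.19 and a genotype difference of -0.19 (SE 0.08). Usp2-KO pool 1 was not the lowest array for Plin4.

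Lipe, Lep, Fabp4 and Ucp1 did not share the low value of Usp2-KO pool 1. Lipe was at 9.16 and 9.22 in the WT pools and at 9.14 and 9.06 in the Usp2-KO pools, a difference of -0.09 (SE 0.07) with the groups just apart. Lep was at 6.02 and 6.18 in the WT pools and at 6.10 and 6.06 in the Usp2-KO pools, and both Usp2-KO values lay between those of the WT pools. Its difference was -0.02 (SE 0.08, 95% confidence interval -0.20 to 0.16).

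Fabp4 was at 8.30 and 8.37 in the WT pools and at 8.35 and 8.55 in the Usp2-KO pools. The groups overlapped, and the difference was 0.12 (SE 0.09, 95% confidence interval -0.08 to 0.31). With 1 pool left out it ran from 0.02 (pool 2 of Usp2-KO omitted) to 0.22 (pool 1 of Usp2-KO omitted). Ucp1 was at 6.03 and 6.34 in the WT pools and at 6.22 and 6.56 in the Usp2-KO pools. The groups overlapped, pool 2 was above pool 1 by 0.31 in WT and by 0.34 in Usp2-KO, and the genotype difference was 0.21 (SE 0.13, 95% confidence interval -0.08 to 0.50). It ran from 0.04 to 0.38 with 1 pool left out, with 0.04 when pool 2 of Usp2-KO was omitted, 0.05 when pool 1 of WT was, and 0.38 when pool 1 of Usp2-KO was. Ucp1 and Fabp4 were the members with a higher mean in Usp2-KO.

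Of the 10 genes, 8 had a lower mean in Usp2-KO, against 52.5% of all genes tested. In both littermate pairs 7 were lower, against 25.3% of all genes, and for 7 both Usp2-KO pools lay below both WT pools, against 19.1%. The gap between the groups was only 0.04 for Cidec and 0.02 for Plin1 and Lipe. The median difference was -0.24, or -0.09 without Usp2-KO pool 1, beside a median of -0.01 over all genes. In the limma fit over all 19934 genes, 0 of the 10 passed an adjusted p of 0.05, where 0.00502% of all genes did (1 gene, Usp2), and 4 had an unadjusted p under 0.05, where 9.11% of all genes did. With the littermate pools as a block, 3 of the 10 passed, namely Adipoq, Retn and Cidec, all lower, where 0.768% of all genes did (153 genes, 51 of them lower, or 0.256%). The block leaves the differences as they are and uses nearly the same spread for every gene, so that the disagreement between the pairs in these 3 genes weighs little. The genes were assembled with this contrast known, so nothing is read from these counts.

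**Figure D2:**
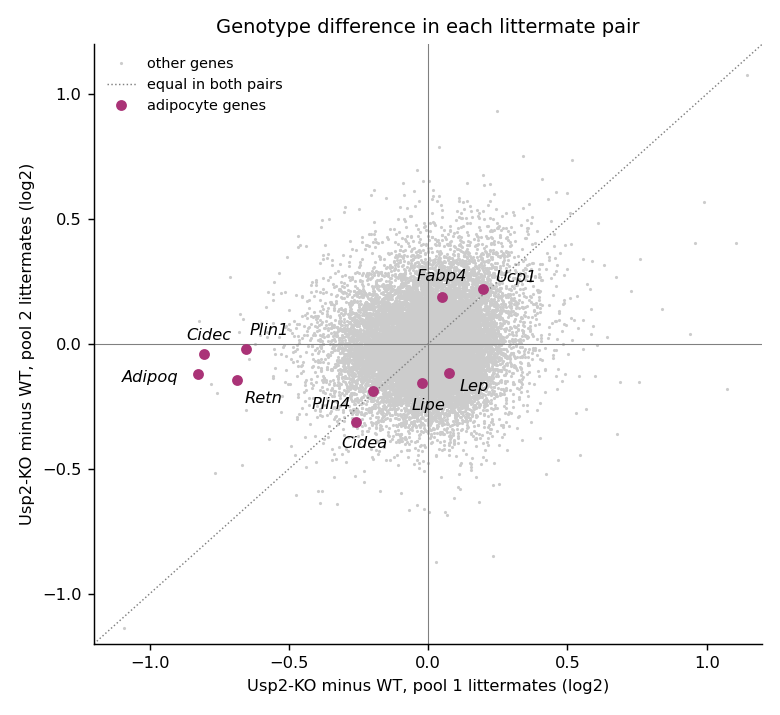
Usp2-KO minus WT (log2) in the pool 1 littermates (x axis) against the pool 2 littermates (y axis), with the 10 adipocyte genes in purple and other genes in grey; the dotted line marks equal differences, and Usp2 and 2 further genes lie outside the axes. Adipoq, Cidec, Retn and Plin1 lie far to the left (-0.83, -0.80, -0.69 and -0.65) and near 0 on the y axis, and Cidea, Plin4 and Ucp1 lie near the line.

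The low values of Usp2-KO pool 1 were compared with all genes by a distance of at least 0.4 below the lowest of the other 3 arrays, a size chosen after the values were seen. That array lay so low for 17 genes, 0.0853% of the 19934, and 4 of them were Cidec (0.75 below), Adipoq (0.68), Plin1 (0.59) and Retn (0.41). The other arrays had 8 (WT pool 1), 13 (WT pool 2) and 11 (Usp2-KO pool 2) such genes, with 0 of the 10 adipocyte genes among them. Of the 17 genes, 6 had a mean of 6 or more over the arrays. These were the 4 adipocyte genes, Bcl6, a transcriptional repressor that was 1.02 below, and Gm10790, which was 0.42 below. A cut at 6 removes none of the 10 genes, whose lowest mean was 6.09. Most of the 17 had means under 6, inside the range of the olfactory receptors or near it. One of them, Olfr1029, was 0.757 below, slightly farther than Cidec at 0.748. The Usp2-KO pools differed by at least 0.4 in either direction for 0.898% of all genes and the WT pools for 0.853%. The 4 adipocyte genes were among the former and 0 of the 10 among the latter. Because the 10 were assembled with the genotype contrast known, and Retn only just passes the cut, nothing is read from these counts.

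**Figure D3:**
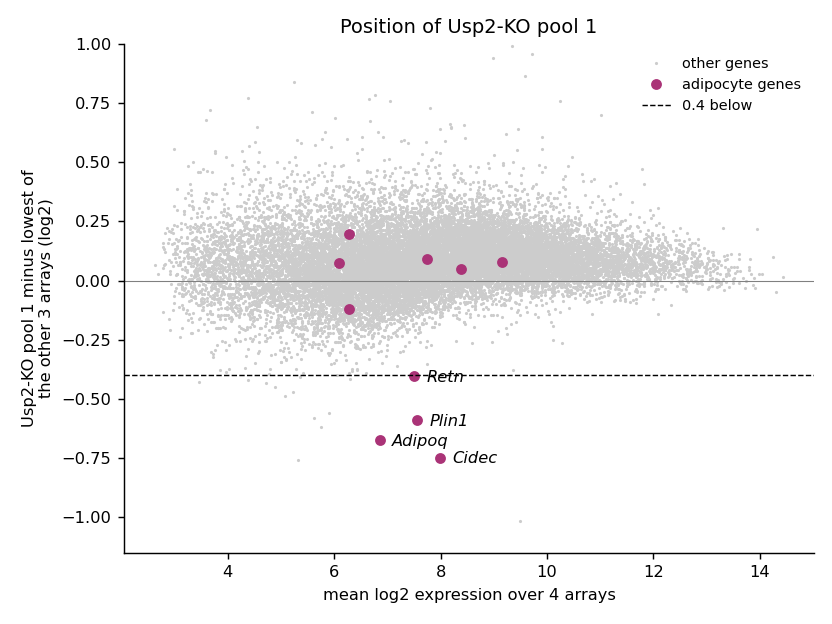
Usp2-KO pool 1 minus the lowest of the other 3 arrays (log2, y axis) against the mean log2 value over the 4 arrays (x axis), with the 10 adipocyte genes in purple and other genes in grey; the dashed line marks 0.4 below, and 5 genes lie above the plotted range. Retn, Plin1, Adipoq and Cidec lie at or under the line, and the grey point of mean 9.49 under them is Bcl6.

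Genes with values nearest to those of Adipoq were found by the root mean square distance over the 4 arrays. Values were centred on each gene's mean but not scaled, so the size of a change counts as well as its shape. Cidec (distance 0.04) was the nearest of all 19933 other genes, Plin1 (0.07) was at place 2 and Retn (0.11) at place 5. Cidea was at place 325 and the other 5 members lay from place 3848 on. Adipoq, Cidec, Plin1 and Retn were grouped for their low value in Usp2-KO pool 1, so their closeness restates that choice. The 8 nearest genes outside the 10 were Lce1c, Saa4, Dmp1, Speer4a, Prp2, 4921509C19Rik, Olfr1347 and C130073F10Rik, with distances from 0.09 to 0.14. For all 8, Usp2-KO pool 1 was the lowest array. Their mean values lay between 4.73 and 9.36. All but Prp2 and Olfr1347, itself an olfactory receptor gene, had means inside the range of the olfactory receptors given above. Lce1c, for instance, was at 5.93 and 5.69 in the WT pools and at 5.10 and 5.78 in the Usp2-KO pools.

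Low-signal genes as a whole were slightly lower in Usp2-KO pool 1. Among genes of mean log2 value 5 to 6, that array was at a median of -0.05 from the median of the other 3, and the median was -0.04 for 6 to 7, 0.00 for 7 to 8 and 0.04 for 8 to 9. The genotype difference, over both pools, had a median of -0.0305 for 5 to 6, -0.0397 for 6 to 7, -0.0155 for 7 to 8 and 0.0155 for 8 to 9. The 10 genes had 4 members at 6 to 7 and 4 at 7 to 8. Cyclic loess between the arrays, which is meant to reduce such a drift, was added after the data were seen. With it the genotype difference was -0.45 for Adipoq, -0.40 for Retn, -0.43 for Cidec and -0.33 for Plin1. Whether the drift had a part in these values was not tested.

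Further genes of fat cells were taken from lists. For comparison with each list below, 52.5% of all genes were lower. By limma 9.11% of all genes had an unadjusted p under 0.05 and 0.768% passed with the block. Of 29 further adipocyte markers, many of which the kidney also makes, 19 were lower and 10 higher in Usp2-KO, with a median of -0.03. By limma 0 passed with or without the block, and 1 had an unadjusted p under 0.05. Usp2-KO pool 1 was the lowest array for 14 of the 29, against 23.3% of all genes. Trarg1, a regulator of glucose transporter traffic in fat cells, had the largest difference of the list, -0.20, and differed by -0.29 and -0.12 in the littermate pairs. Scd1, a fatty acid desaturase, was higher by 0.18. Nnat differed by -0.32 and 0.00 in the littermate pairs and Agpat2, an enzyme of triglyceride synthesis, by -0.08 and -0.19.

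Of 18 brown fat genes outside the 10, 10 were lower and 8 higher, with a median of -0.04. By limma 0 passed with or without the block, and 0 had an unadjusted p under 0.05. Usp2-KO pool 1 was the lowest array for 10 of the 18. Dio2, the deiodinase that activates thyroid hormone, differed by 0.15, and Slc25a20, the mitochondrial carnitine carrier, by 0.30 and -0.12 in the littermate pairs. Of 21 further genes of lipolysis and lipid droplets, 11 were lower and 10 higher, with a median of -0.01; 0 passed by limma with or without the block, and 1 had an unadjusted p under 0.05. Usp2-KO pool 1 was the lowest array for 4 of the 21. Rab18, a small GTPase of droplets, differed by 0.32, and G0s2, an inhibitor of lipolysis, by -0.15.

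The receptors for fat cell hormones showed small differences. Those of adiponectin were at 10.82, 10.89, 10.95 and 10.89 for Adipor1 (WT pools 1 and 2, then Usp2-KO pools 1 and 2), a difference of 0.07 (SE 0.07). Adipor2 differed by 0.02 (SE 0.07), a value whose sign turned with repeated quantile normalization. Cdh13, T-cadherin, which binds adiponectin, differed by 0.07 and -0.31 in the littermate pairs. The leptin receptor gene Lepr differed by 0.01 (SE 0.08) and Cap1, reported as a receptor of resistin, by -0.01 (SE 0.07). By limma 0 of these 5 genes passed with or without the block, and 0 had an unadjusted p under 0.05.

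Relatives of the 10 genes in their protein families were measured too. Of 20 relatives, 14 were lower and 6 higher, with a median of -0.04; 0 passed by limma with or without the block, and 3 had an unadjusted p under 0.05. The perilipins Plin2, Plin3 and Plin5 differed by -0.02, -0.01 and -0.07, and Cideb, the CIDE protein of liver and other epithelia, by 0.01. Retnla, a resistin-like molecule of macrophages, differed by -0.56 and 0.20 in the littermate pairs, also with its lowest value in Usp2-KO pool 1. Ucp3, the muscle relative of Ucp1, was at 6.60 and 6.58 in the WT pools and at 6.28 and 6.45 in the Usp2-KO pools. Ucp3, Fabp1 and C1qtnf2 were the relatives with an unadjusted p under 0.05. Fabp1, the fatty acid carrier of liver, had the largest difference of the list, -0.32, with -0.32 in each littermate pair. Its mean over the arrays was 4.69, inside the range of the olfactory receptors. C1qtnf2, of the adiponectin family, differed by -0.24, with -0.19 and -0.29 in the pairs. Fabp7, a fatty acid carrier of brain, differed by 0.28 and Fabp5 by -0.07.

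Markers of tissues that lie next to the kidney or within the fat pad were measured in the same pools, and their part in the values of the 10 genes was not tested. In stroma and preadipocytes 9 of 15 genes were lower (median -0.01, mean values per array between 8.33 and 8.39). In macrophages 10 of 14 were lower (median -0.02, means between 7.48 and 7.53), and in mesothelium 5 of 10 (median -0.03, means between 7.27 and 7.34). In the adrenal list 11 of 13 genes were lower (median -0.07), with means of 6.12 and 6.09 in the WT pools and 6.04 and 6.04 in the Usp2-KO pools. In the pancreas list it was 11 of 12 (median -0.06), with means of 6.46 in both WT pools and of 6.37 and 6.38 in the Usp2-KO pools. In skeletal muscle it was also 11 of 12 (median -0.07), with means of 6.85 in both WT pools and 6.79 and 6.77 in the Usp2-KO pools. Over all genes the median genotype difference was -0.0305 at mean log2 values of 5 to 6 and -0.0397 at 6 to 7. By limma 0 genes of these 6 lists passed with or without the block. At an unadjusted p under 0.05 there were 4 in mesothelium, 2 each in the adrenal, pancreas and muscle lists, and 0 in the others. Usp2-KO pool 1 was the lowest array for 6 of 12 muscle, 5 of 12 pancreas and 4 of 13 adrenal genes. It was also the lowest for 5 of 15 stroma, 4 of 14 macrophage and 0 of 10 mesothelium genes, against 23.3% of all genes.

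Of 10 genes of the urothelium, which lines the renal pelvis, 10 were lower (median -0.15); 0 passed by limma with or without the block, and 3 had an unadjusted p under 0.05. Their mean values were 7.47 and 7.64 in the WT pools and 7.44 and 7.31 in the Usp2-KO pools. They differed by a median of -0.03 in the pool 1 littermates and of -0.29 in the pool 2 littermates, beside medians of -0.23 and -0.12 for all 10 adipocyte genes. The 6 of these other than Adipoq, Cidec, Plin1 and Retn had medians of 0.01 and -0.14. The 4 were grouped for their low value in Usp2-KO pool 1, and their medians of -0.75 and -0.08 restate that choice. Of the 2 blood genes measured, Alas2, of red cell haem synthesis, was lower by -0.38 (limma adjusted p = 0.0264 with the block and 0.34 without it) and Slc4a1 differed by -0.01.

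**Figure D4:**
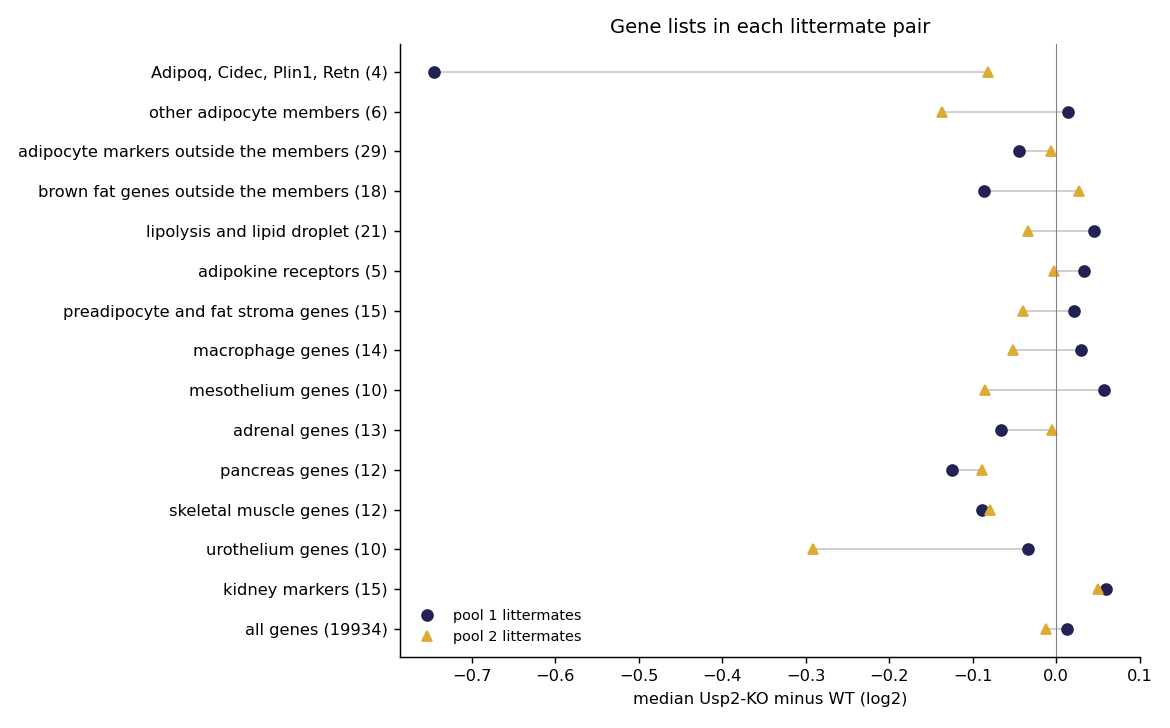
Median Usp2-KO minus WT (log2, x axis) of each gene list in the pool 1 littermates (circles) and the pool 2 littermates (triangles), with the number of genes in brackets. The 4 genes Adipoq, Cidec, Plin1 and Retn, grouped for their low value in Usp2-KO pool 1, are at -0.75 and -0.08, the other 6 adipocyte genes at 0.01 and -0.14, urothelium genes at -0.03 and -0.29, and all genes at 0.01 and -0.01.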

How the data were processed

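Per the labels, kidney RNA of 3 mice was pooled per array and 300 ng labelled for an Affymetrix whole-transcript array. The authors deposited log2 values made with RMA (background correction, quantile normalization and a summary per probe set), per the submitters' processing notes. Software, version and genome build are not given in the sources used here. Of 28270 rows, 21780 had 1 gene symbol, 1617 several and 4873 were not listed. The row of highest mean per gene left 19934 genes, with no filter on signal. Gene identifiers of 21689 rows matched a GRCm38.p6 gene table, which changed 0 symbols.

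The genotypes were compared by limma 3.58.1 in its standard form, a linear model with moderated spread run in R 4.3.3 on 2 and 2 pools. Its p-values were adjusted by Benjamini-Hochberg over all genes with a threshold of 0.05. The fit without the block was also run on simulated arrays without littermate pairs, which says nothing about the fit with the block. Pools measure the spread between pools, not between animals. The series' design text pairs pools of the same number as littermates. As a check, departures of pools of equal number from the mean of their genotype correlated at -0.12 across genes, so a crossed pairing was added. The 10 genes, the lists and the tests were chosen with earlier results of these data known. Genes named were the 10, Usp2, the receptors, up to 4 of largest difference per list and the 8 nearest to Adipoq. Relatives in protein families and the genes Bcl6, Gm10790 and Olfr1029 were picked after their values were seen. Alternatives were the block, prior settings, signal filters, row choice, scaling, a threshold of 0.10 and each pool left out. Plots were drawn with matplotlib 3.10.9.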

Additional observations from a re-analysis of the deposited data

How the results depend on the processing

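The number of arrays limits every value. With the littermate pools as a replicate block, 153 genes passed against 1 in the fit without it, and 3 of the 10 adipocyte genes against 0. With the crossed pairing, an alternative added after the data were seen, 1 gene and 0 of the 10 passed. An intensity trend gave 18 genes, either filter on signal 7 (genes above the median signal, or a mean of at least 6) and a threshold of 0.10 gave 2. Leaving out 1 pool gave 1 to 2 genes, with 2 without WT pool 1 and 2 without Usp2-KO pool 2. The block apart, 0 of the 10 passed under every setting run. Above the median signal 4 of the 10 genes remained, of which 3 were lower, and 3 in both pairs. Across the alternatives with all 10 genes, 7 to 8 were lower, and the median difference ran from -0.25 to -0.09, the latter without Usp2-KO pool 1. Whether a gene was lower in both pairs could not be computed with a pool left out. Among the 10 genes, Lep alone changed sign, to 0.016 with repeated quantile normalization and 0.015 with cyclic loess (added after the data were seen), and it ran from -0.098 to 0.058 with 1 pool left out. Adipor2 was -0.012 with repeated quantile normalization and -0.0028 with cyclic loess. Leaving out 1 pool also turned the sign of 13 other genes named, whose lowest and highest values were -0.0095 and 0.0455 for Adipor2, -0.038 and 0.023 for Cap1, -0.048 and 0.06 for Lepr, -0.0315 and 0.0505 for Cideb, -0.0755 and 0.0445 for Plin2, -0.0675 and 0.0485 for Plin3, -0.44 and 0.083 for Retnla, -0.4715 and 0.0315 for C130073F10Rik, -0.581 and 0.063 for Dmp1, -0.6475 and 0.0905 for Saa4, -0.0425 and 0.2315 for Slc25a20, -0.0445 and 0.0185 for Slc4a1, and -0.4455 and 0.0195 for Gm10790.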
